A study of Mus musculus with 2 samples.

Results

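Transitional keratinocytes (KCs) of the newborn mouse epidermis are described here: cells that carried transcripts of both the basal and the suprabasal keratin pair. A cell was a member if Krt14 and Krt5 together made up at least 0.8% of its unique molecular identifiers (UMIs, one per captured transcript molecule), Krt1 and Krt10 together also made up at least 0.8%, Lor, which encodes the granular layer protein loricrin, stayed below 0.5%, and Lhx2, a hair follicle transcription factor gene, had at most 1 UMI. The rule found 382 cells among 19488 barcodes that had 900 to 7700 detected genes and less than 10% mitochondrial UMIs. The 2 libraries came from male Chrm3 KO mice on the C57BL/6J background, with skin collected at postnatal day 0, and each library is 1 mouse. Chrm3 encodes the M3 receptor for acetylcholine, the mice are given as Chrm3-/-, and the labels name no agent. The epidermis was split from the dermis and made into single cells, dead cells were taken out, and transcripts were captured by droplet single-cell RNA-seq that reads the 3' end. All values below therefore describe KO epidermis: WT cells were not analysed here, and no effect of genotype was tested.

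In stratified epidermis, dividing basal KCs are held to the basement membrane by integrins and hemidesmosomes and express Krt5 and Krt14. When a KC detaches and moves up into the spinous layer it stops dividing, exchanges these keratins for Krt1 and Krt10 and enlarges its desmosomes, and in the granular layer it then makes loricrin, filaggrin and the enzymes of the lipid barrier. Notch receptors, activated by ligands on neighbouring cells, are known to drive the change from basal to spinous. Transcription factors such as KLF4, GRHL1 and ZFP750 are known to promote KC differentiation.

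The mouse 1 library held 10816 barcodes with 109756784 UMIs and the mouse 2 library 15867 barcodes with 166441732 UMIs. Of these, 7607 and 11881 barcodes passed the limits on genes and mitochondrial UMIs. Transitional KCs were 135 of the 7607 cells in mouse 1, or 1.77% (exact binomial 95% interval 1.49 to 2.10%), and 247 of the 11881 in mouse 2, or 2.08% (1.83 to 2.35%). The mean over both mice was 1.93% ± 0.215 (SD, n = 2), and the intervals, which cover counting error only, overlapped. The mouse 1 cells contributed 2318412 UMIs and those of mouse 2 3712040 UMIs, with 1536 to 76872 UMIs per cell in mouse 1 and 1446 to 69768 in mouse 2. Median depth was 15934 and 14321 UMIs and 3529 and 3326 genes per cell, which lay between basal cells at 9566 and 9687 UMIs and spinous cells at 18396 and 17209 UMIs.

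Other classes of the same mice served for comparison, all cut from the same keratin counts. Basal KCs had Krt14 and Krt5 at or above 0.8% and Krt1 and Krt10 below it (1928 and 3337 cells). Spinous KCs had the reverse (187 and 185 cells), and granular KCs had Lor at or above 0.5% (19 and 20 cells). These comparison cells were also limited to at most 1 UMI each of Lhx2, Krt79, Sox9 and Shh and to under 0.2% melanocyte or immune UMIs, a limit that the transitional cells did not have. Differences in those limiting genes between transitional cells and the others are therefore fixed by how the cells were chosen.

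Chrm3 was checked first, since its loss defines the mice. No Chrm3 UMI was found in the transitional KCs of either mouse, which allows a level of up to 1.29 CPM (UMIs per 1000000 UMIs) in mouse 1 and 0.808 CPM in mouse 2, the levels that 3 UMIs would give. Over all kept cells there were 13 Chrm3 UMIs in mouse 1, or 0.137 CPM (exact Poisson 95% interval 0.0728 to 0.234), and 19 in mouse 2, or 0.128 CPM (0.0769 to 0.199). Basal cells held 3 and 9 of them. The assay reads the 3' end of a transcript, and where that end lies outside the deleted stretch it does not check the label.

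The members were chosen by their Krt14, Krt5, Krt1, Krt10, Lor and Lhx2 counts, which are given as a description. Median Krt14 plus Krt5 was 1.65% and 1.99% of UMIs in transitional cells of mice 1 and 2, against 1.98% and 2.03% in basal cells and 0.0373% and 0.0867% in spinous cells. Median Krt1 plus Krt10 was 1.82% and 1.69%, against 0.0812% and 0.150% in basal and 5.07% and 5.02% in spinous cells. The basal pair was thus near the basal level, while the suprabasal pair lay between those of the neighbours. Melanocyte-like cells, which make neither pair and so show the free RNA of these libraries, had medians of 0.0165% and 0.0344% for Krt14 plus Krt5 and 0.0717% and 0.139% for Krt1 plus Krt10, far under the limits of the rule. Cells just inside the Krt1 plus Krt10 limit (0.8 to 0.96%, 19 and 32 cells) had Krtdap at 3138 and 4467 CPM, and cells just outside it (0.64 to 0.8%, 14 and 36 cells) at 3876 and 4159 CPM. At the Krt14 plus Krt5 limit, 14 and 17 cells just inside had Krtdap at 4916 and 5182 CPM and 14 and 22 cells just outside at 4438 and 6051 CPM. Cells on either side of a limit thus had similar Krtdap levels, and the edge of the class is a cut through a continuous range.

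**Figure D1:**
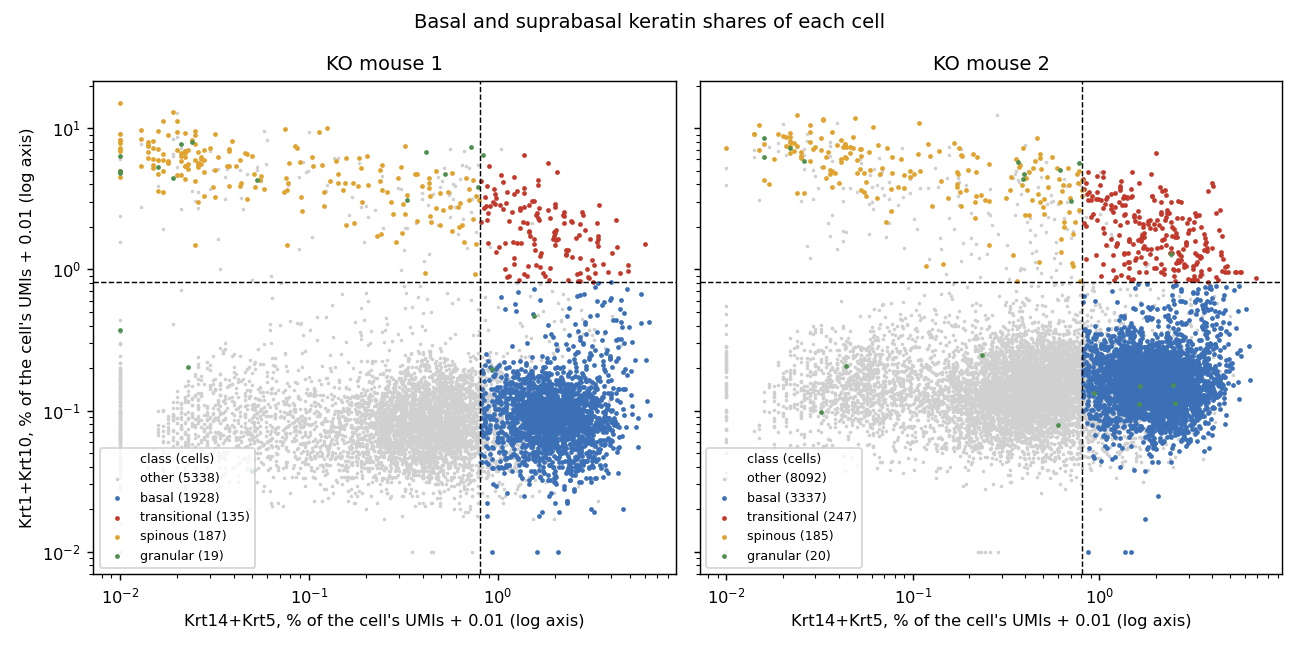
Each point is a cell of KO mouse 1 (left) or KO mouse 2 (right), placed by Krt14 plus Krt5 (x axis) and Krt1 plus Krt10 (y axis) as a percentage of its UMIs plus 0.01, both on log axes, and coloured by class. The 135 and 247 transitional cells fill the upper right corner beyond the dashed limits of 0.8% and join the basal cells below and the spinous cells to the left without a gap.

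The keratin genes of the rule lie in the keratin clusters. In the mm10 build with GENCODE M21 genes, Krt14 is at chr11:100203162-100207548 and Krt10 at chr11:99385254-99389364 in the type I keratin cluster, and Krt5 is at chr15:101707070-101712898 and Krt1 at chr15:101845426-101850794 in the type II cluster, all on the minus strand. Krtdap, which encodes keratinocyte differentiation-associated protein and was named as a marker of these cells, is at chr7:30787896-30791097 on the plus strand, near Sbsn at chr7:30751471-30756134 and Dmkn at chr7:30763756-30781063, which encode other secreted proteins of the suprabasal layers. The promoters of Krt5, Krt10 and Krtdap are shown because their transcripts are the ones that coexisted here: Krt5 of the basal program, Krt10 and Krtdap of the suprabasal. Each run is the 250 bases before the RefSeq start site in GRCm38.p6, 5′ to 3′ on the gene's strand, and capitals mark matches, on either strand, to TATAAA, a core promoter element, or to TGANTCA, the site of AP-1 factors.
Krt5 promoter, chr15:101712906-101713155, minus strand: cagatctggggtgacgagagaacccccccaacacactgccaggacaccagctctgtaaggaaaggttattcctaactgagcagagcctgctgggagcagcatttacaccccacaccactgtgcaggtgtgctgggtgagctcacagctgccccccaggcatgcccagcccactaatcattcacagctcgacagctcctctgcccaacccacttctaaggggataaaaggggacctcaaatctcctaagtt
Krt10 promoter, chr11:99389365-99389614, minus strand: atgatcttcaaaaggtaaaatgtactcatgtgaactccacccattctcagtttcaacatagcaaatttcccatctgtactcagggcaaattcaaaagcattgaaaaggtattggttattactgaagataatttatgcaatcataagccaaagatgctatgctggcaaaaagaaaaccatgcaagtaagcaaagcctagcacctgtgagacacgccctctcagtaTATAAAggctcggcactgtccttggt
Krtdap promoter, chr7:30787655-30787904, plus strand: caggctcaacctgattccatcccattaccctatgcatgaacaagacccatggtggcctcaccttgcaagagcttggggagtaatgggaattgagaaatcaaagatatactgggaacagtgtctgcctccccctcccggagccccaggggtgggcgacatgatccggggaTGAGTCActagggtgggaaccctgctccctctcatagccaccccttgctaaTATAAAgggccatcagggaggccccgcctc
TATAAA was found 26 to 21 bases before the start of Krt10 and 30 to 25 bases before that of Krtdap, and TGANTCA 81 to 75 bases before that of Krtdap. Neither set of letters was found in the Krt5 window. Over 32851 mouse promoters of the same length, 12.4% held TATAAA and 6.75% held TGANTCA. A match describes the letters and says nothing about binding.

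The levels of the given markers are described next. Krtdap was at 969 and 1417 CPM in basal cells, 3888 and 4930.3 CPM in transitional cells and 7095 and 8620.4 CPM in spinous cells (mice 1 and 2 in this order throughout). It was detected in 135 of 135 and 246 of 247 transitional cells, with a median of 62 and 70 UMIs per cell. It was also detected in 95.5% and 98.4% of basal cells and 98.9% and 98.9% of spinous cells. Melanocyte-like cells had it at 88.3 and 299 CPM, and it was detected in 45.9% and 76.5% of them. Detection therefore did not set the members apart from basal or spinous cells. The groups did not overlap: Krtdap rose against basal by a log2 fold change of 1.89 ± 0.19 (SE; adjusted p = 1.63e-05) and was below spinous by a log2 fold change of -0.83 ± 0.19 (adjusted p = 0.013), a call that was lost with keratin limits of 1.6% (-0.65, adjusted p = 0.081) and among cells of 5000 to 20000 UMIs (-0.57, adjusted p = 0.23). Krt1 was at 328 and 620.0 CPM in basal cells, 11852 and 11671 CPM in transitional cells and 27721 and 31447 CPM in spinous cells, and Krt10 at 485 and 786 CPM in basal cells, 8619 and 8131 CPM in transitional cells and 30736 and 29906 CPM in spinous cells. Krt1 and Krt10 are rule genes. Krtdap is not, and its level lay between those of the neighbours. A gene that follows the suprabasal keratins had to differ between classes cut on them, so this level is no independent check of the label.

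Fold changes come from UMIs summed over the cells of each mouse and class, fitted with edgeR's quasi-likelihood test over 8 sums (2 mice by 4 classes) and 10749 genes, with the 6 rule genes left untested and p-values adjusted by Benjamini-Hochberg over all 10749. CPM are on the TMM scale of that fit. Because the classes were cut from keratin counts of the same cells, genes that follow those keratins had to differ, so the calls below place the transitional cells between their neighbours and are not evidence that a separate state exists. Against basal KCs, 1585 genes were higher in transitional cells (14.7% of those tested) and 1732 lower (16.1%). Against spinous KCs 514 genes were higher (4.78%) and 656 lower (6.10%). In both comparisons the median log2 fold change over all genes was near 0, at -0.02 and 0.01. With the mouse as a block, 1987 of 10749 genes were higher and 2135 lower than in basal cells, and 765 higher and 1010 lower than in spinous cells. Against spinous cells, 103 of 9957 genes were higher and 218 lower with keratin limits of 1.6%. Among cells of 5000 to 20000 UMIs 69 of 9294 were higher and 95 lower. Without dividing cells 331 of 10538 were higher. Counts of a gene list under an alternative are to be read beside the counts over all genes in that alternative. Scaling by library size alone moved the median of all genes by -0.11 against basal and 0.12 against spinous, and the share of calls that were higher from 47.8% to 34.9% and from 43.9% to 62.5%.

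**Figure D2:**
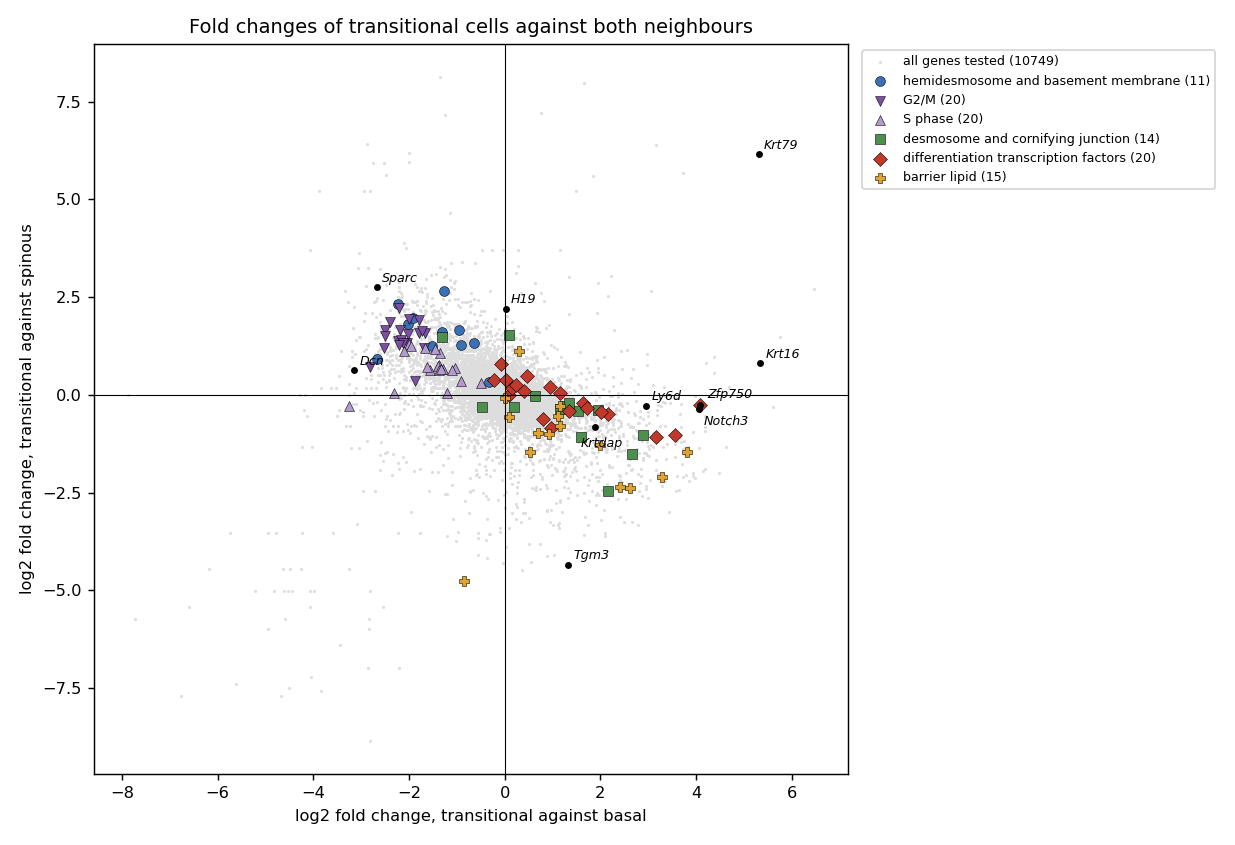
Each point is 1 of 10749 genes, with its log2 fold change of transitional against basal cells on the x axis and against spinous cells on the y axis, and 6 gene lists marked by colour and shape. Hemidesmosome, S phase and G2/M genes lie in the upper left (below basal, above spinous), junction, transcription factor and barrier lipid genes in the lower right (above basal, below or near spinous), and Krt79 at 5.31 and 6.15 in the upper right, a gene limited by the choice of comparison cells.

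Of the genes that passed both single tests, most lay between the neighbours. 415 genes were above basal and below spinous (3.86% of those tested) and 382 below basal and above spinous (3.55%), each by both single tests. By contrast, 14 genes passed both single tests as higher (0.130%) and 9 as lower (0.0837%). In the joint test, which takes the larger p of the pair, 1 gene was above both neighbours (0.00930%) and 0 below both (0%). At an unadjusted p under 0.05 there were 56 above and 52 below, and DESeq2 gave 1 and 1. The 1 gene above was Krt79, whose difference the choice of comparison cells fixed, and with no such limit on the comparison classes none was called above both. With the mouse as a block 3 genes were above both, namely Krt79, Krt6a, whose UMIs came from a few cells as given later, and Slc1a4, a neutral amino acid transporter gene (log2 fold changes 0.80 over basal and 1.12 over spinous), and with no filter beyond 1 UMI there were 13, Slc1a4 among them.

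Genes that anchor the basal cell to its basement membrane were intermediate and lower than in basal cells. Of 11 hemidesmosome and basement membrane genes, 10 fell against basal, none rose, and 9 were higher than in spinous cells. The shares over all genes tested were 16.1%, 14.7% and 4.78%. The list's median log2 fold changes were -1.32 and 1.62. Col17a1, which encodes the hemidesmosomal collagen XVII, was at 431 and 319 CPM in basal cells, 190.3 and 122 CPM in transitional cells and 28.1 and 20.8 CPM in spinous cells. It was lower than in basal cells by a log2 fold change of -1.28 ± 0.29 (adjusted p = 0.005), a call that DESeq2 did not make (adjusted p = 0.081), and higher than in spinous cells by 2.66 ± 0.35 (adjusted p = 0.000426). Its level fell step by step within the transitional cells, as shown further on. Lamb3, a chain of laminin 332, was at 174 and 129 CPM in basal cells, 40.7 and 25.9 CPM in transitional cells and 5.98 and 6.94 CPM in spinous cells, a log2 fold change of -2.22 ± 0.22 against basal and 2.33 ± 0.33 against spinous cells, where the call was lost with keratin limits of 1.6% (1.71, adjusted p = 0.054). Itga6, the α6 integrin chain of the hemidesmosome, was at 224 and 186 CPM in basal cells, 126 and 86.6 CPM in transitional cells and 34 and 32.7 CPM in spinous cells, so that it stayed above the spinous level by 1.66 ± 0.22. Itga3, the α3 integrin chain that binds laminin outside hemidesmosomes, was at 5.24 and 3.81 CPM against 29.3 and 27 in basal cells (log2 fold change -2.68 ± 0.25, adjusted p = 8.84e-06). Plec, the plakin that links keratin to the hemidesmosome, did not pass against either neighbour in the main fit. It was at 201 and 190.2 CPM in basal cells, 172 and 142 CPM in transitional cells and 119 and 130.1 CPM in spinous cells. With the mouse as a block all 11 genes of the list, Plec among them, were lower than in basal cells. The same held with library size scaling, without dividing cells and among cells of 5000 to 20000 UMIs. Over all genes, 2135 of 10749 were lower than in basal cells with the block and 2242 of 10749 with library size scaling. Without dividing cells 1557 of 10538 were lower, and 1558 of 9294 among cells of 5000 to 20000 UMIs. DESeq2 called 9 of the 11 lower.

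Most of the other basal genes tested fell against basal cells, and some did not. Of 13 tested from a list of 14, 8 fell against basal, 1 rose and 11 were above spinous, with medians of -1.17 and 1.20. The shares over all genes tested were 16.1%, 14.7% and 4.78%. The list's number above spinous was 7 with keratin limits of 1.6% and 7 among cells of 5000 to 20000 UMIs. Sparc, a collagen-binding matrix protein gene, was at 378 and 403 CPM in basal cells, 68.5 and 55.1 CPM in transitional cells and 8.84 and 9.25 CPM in spinous cells, a fold change of -2.67 ± 0.26 on the log2 scale against basal (adjusted p = 1.07e-05) and 2.76 ± 0.35 against spinous. Melanocyte-like cells had Sparc at 406 and 418 CPM, far above spinous cells of the same libraries, so they do not serve as a free RNA reference for this gene. The part of free RNA in the transitional level was not tested. Dcn, the gene of the proteoglycan decorin, was at 349.9 and 535 CPM in basal cells, 52.4 and 47.8 CPM in transitional cells and 18.2 and 47.1 CPM in spinous cells, and its fall against basal by -3.15 ± 0.35 left it where the difference from spinous cells did not pass the test (adjusted p = 0.36). Cxcl14, a chemokine gene, was at 1167 and 1085 CPM in basal cells, 285 and 209 CPM in transitional cells and 73.5 and 65.6 CPM in spinous cells. Wnt10a, a Wnt ligand gene, was at 11.7 and 9.65 CPM against 78.7 and 78.7 in basal cells (log2 fold change -2.91 ± 0.16), and Wnt6, another, at 13.7 and 9.4 against 103 and 97.7 (-3.17 ± 0.27).

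Of the genes named next, H19, Igf2, Krt15 and Mt2 had transitional levels near the basal level and lower spinous levels, while Postn was above basal. H19, an imprinted long noncoding RNA, was at 487 and 496 CPM in basal cells, 481 and 514 CPM in transitional cells and 86.5 and 130.1 CPM in spinous cells. It did not pass against basal (log2 fold change 0.02 ± 0.17, adjusted p = 0.96) and was above spinous by 2.20 ± 0.18 (adjusted p = 2.57e-05). Igf2, the imprinted growth factor gene next to it on chromosome 7, was at 95.3 and 82.1 CPM in basal cells, 99.2 and 104 CPM in transitional cells and 37.4 and 36.7 CPM in spinous cells and was likewise above spinous (log2 fold change 1.46 ± 0.13). Krt15, a keratin of basal and bulge cells, was at 4770.0 and 3571 CPM in basal cells, 4679 and 4736 CPM in transitional cells and 2559 and 2299 CPM in spinous cells, so that unlike the genes of attachment it had not fallen (against spinous 0.95 ± 0.21, adjusted p = 0.011, lost among cells of 5000 to 20000 UMIs at 0.30, adjusted p = 0.48). Mt2, a metallothionein gene, had 235 and 271 CPM against 227 and 274 in basal and 162 and 133 in spinous cells. Postn, which encodes the matrix protein periostin, was at 192 and 177 CPM in basal cells, 313 and 279 CPM in transitional cells and 141 and 158 CPM in spinous cells. Its transitional values lay above those of both neighbours in both mice, by a log2 fold change of 0.68 ± 0.20 over basal (adjusted p = 0.021) and 0.98 ± 0.21 over spinous (adjusted p = 0.01), though the joint test called it only with no filter beyond 1 UMI.

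Secreted and surface products of the suprabasal layers had risen, to different degrees. Of 11 tested from a list of 12, 9 rose against basal, none fell, and 9 were lower than in spinous cells. The shares over all genes tested were 14.7%, 16.1% and 6.10%. The list's medians were 1.89 and -1.32. Among cells of 5000 to 20000 UMIs 3 were lower than in spinous cells, with a median of -0.61, and without Krt79-positive members the median against basal was 1.27. Ly6d, a GPI-anchored surface protein gene of early differentiating KCs, was at 1601 and 1265 CPM in basal cells, 11877 and 10375 CPM in transitional cells and 13758 and 13180.5 CPM in spinous cells. It rose by 2.96 ± 0.17 over basal (adjusted p = 2.51e-07), and its difference from spinous cells did not pass the test (log2 fold change -0.28 ± 0.16, adjusted p = 0.32) but did with the mouse as a block (-0.28, adjusted p = 0.036). Lypd3, another GPI-anchored surface protein gene, was at 22.2 and 26 CPM in basal cells, 193 and 193 CPM in transitional cells and 479 and 485 CPM in spinous cells and was therefore above basal by 3.00 ± 0.18 but still below spinous by -1.32 ± 0.17, on the log2 scale. Sbsn, the suprabasin gene, was at 73.1 and 95.2 CPM in basal cells, 205 and 226 CPM in transitional cells and 949.6 and 866 CPM in spinous cells, nearer to basal cells (log2 fold changes 1.36 ± 0.22 and -2.07 ± 0.23). Krtdap and Sbsn, with Dmkn between them on chromosome 7, therefore stood at different points between the classes, with positions of 0.48 and 0.15 of the way from basal to spinous, in CPM, in mouse 1 and 0.49 and 0.17 in mouse 2.

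Most junction genes rose against basal. Of 14 desmosome and cornifying junction genes tested from a list of 16, 10 rose against basal and 1 fell. Against spinous cells 4 were lower and 2 higher. The shares over all genes tested were 14.7%, 16.1%, 6.10% and 4.78%. The list's medians were 1.30 and -0.33. With the mouse as a block 9 were lower than in spinous cells, and among cells of 5000 to 20000 UMIs 0 were higher. Jup, the plakoglobin gene, was at 149 and 151 CPM in basal cells, 551 and 603 CPM in transitional cells and 722 and 784 CPM in spinous cells (log2 fold change over basal 1.95 ± 0.14, adjusted p = 9.64e-07). Dsp, the desmoplakin gene, was at 786 and 732 CPM in basal cells, 1748 and 1647 CPM in transitional cells and 2099 and 2234 CPM in spinous cells, and Pkp1, the plakophilin 1 gene, at 255 and 219.8 CPM in basal cells, 569 and 573 CPM in transitional cells and 707 and 678 CPM in spinous cells. In the main fit, which has no block, none of these 3 differed from spinous cells past the test (adjusted p = 0.091, 0.098 and 0.18). All 3 were below the spinous level in both mice. The desmosomal cadherins differed among themselves. Dsg1a, a desmoglein 1 gene, was at 33.8 and 34.8 CPM in basal cells, 262 and 247 CPM in transitional cells and 524 and 514 CPM in spinous cells, near the middle in CPM (log2 fold changes 2.89 ± 0.13 and -1.03 ± 0.12). Dsc1, the desmocollin 1 gene of the upper layers, was at 5.05 and 7.58 CPM in basal cells, 29.4 and 28.2 CPM in transitional cells and 148 and 171 CPM in spinous cells and was nearer to basal cells in CPM (against spinous -2.47 ± 0.21, adjusted p = 3.36e-05). Dsc3, the desmocollin of the lower layers, was at 312 and 276 CPM in basal cells, 732 and 756 CPM in transitional cells and 846 and 881 CPM in spinous cells. Dsg2, the desmoglein of simple and basal epithelia, was the 1 member that fell, at 46.4 and 43.5 CPM in basal cells, 17.7 and 18.5 CPM in transitional cells and 6.76 and 6.36 CPM in spinous cells, and Dsg3, the desmoglein of the basal layers, was near the basal level with 20.5 and 19.5 CPM in basal cells, 24.6 and 18.5 CPM in transitional cells and 5.46 and 9.25 CPM in spinous cells. Reads of Dsg1a and Dsg1b, which are close copies, could be shared between them.

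Of 17 adherens, tight and gap junction genes, 12 rose and 2 fell against basal, and 1 was higher and 6 lower than in spinous cells. The shares over all genes tested were 14.7%, 16.1%, 4.78% and 6.10%. The list's medians were 0.96 and -0.61. The median against basal was 0.51 with no other-lineage limit on the comparison classes and 0.62 with such limits on the transitional cells. Against spinous it was -0.25 among cells of 5000 to 20000 UMIs. The number lower than in spinous cells was 2 with keratin limits of 1.6% and 2 among cells of 5000 to 20000 UMIs. Cdh1, the E-cadherin gene, was at 140.3 and 126 CPM in basal cells, 212 and 183 CPM in transitional cells and 187 and 189 CPM in spinous cells, and Cdh3, the P-cadherin gene of basal KCs, at 94.3 and 82.3 CPM in basal cells, 39.1 and 27.4 CPM in transitional cells and 17.9 and 12.7 CPM in spinous cells. The 2 classical cadherins therefore moved in opposite directions against basal, and both passed the test. Nectin4, listed under its older name Pvrl4, was at 5.22 and 5.58 CPM in basal cells, 37.9 and 51.3 CPM in transitional cells and 119 and 100.1 CPM in spinous cells (log2 fold changes 3.06 ± 0.18 and -1.27 ± 0.17). Gjb5, a connexin gene, was at 2.89 and 3.88 CPM in basal cells, 7.26 and 6.35 CPM in transitional cells and 58.7 and 44.8 CPM in spinous cells.

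Notch receptor genes rose in transitional cells, and the ligand genes Jag2 and Dll1 fell. Of 11 tested from a list of 14, 5 rose against basal (Notch1, Notch2, Notch3, Hes1 and Nrarp) and 3 fell (Jag2, Dll1 and Lfng), and 2 were higher than in spinous cells (Notch1 and Jag2). The median log2 fold changes were 0.47 and 0.17. Over all genes tested, 14.7% rose and 16.1% fell against basal, and 4.78% were higher than in spinous cells. With the mouse as a block 6 genes of the list rose against basal, and 4 were higher and 2 lower than in spinous cells. Among receptors, Notch3 was at 1.38 and 1.42 CPM in basal cells, 19.8 and 26.4 CPM in transitional cells and 28.1 and 32.1 CPM in spinous cells. It rose by 4.05 ± 0.22 over basal (adjusted p = 1.77e-07), the 2 basal values lay far below the other 4, and the difference from spinous cells did not pass (log2 fold change -0.35 ± 0.19, adjusted p = 0.28). After thinning each cell to 3000 UMIs, 7.58% (exact 95% interval 3.69 to 13.5) and 7.5% (4.51 to 11.6) of transitional cells had a Notch3 UMI. The shares were 0.521% and 0.398% in basal cells and 9.34% and 10.3% in spinous cells, while 0 of 321 and 0 of 518 melanocyte-like cells had one, which allows up to 0.935% and 0.579%. Without thinning the transitional shares were 31.9% and 32.4%. Notch1 followed another course, at 114 and 119.6 CPM in basal cells, 145 and 177 CPM in transitional cells and 89.7 and 89.4 CPM in spinous cells. Both transitional values exceeded all 4 others, with log2 fold changes of 0.47 ± 0.14 over basal (adjusted p = 0.022) and 0.85 ± 0.15 over spinous (adjusted p = 0.0031), but the call over basal was lost with library size scaling, without dividing cells and with keratin limits of 1.6% (0.36, 0.39 and 0.44, adjusted p = 0.068, 0.092 and 0.064). Notch2 was at 8.15 and 6.69 CPM in basal cells, 12.9 and 16.8 CPM in transitional cells and 28.3 and 26.3 CPM in spinous cells.

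Of the ligand genes, Jag2 and Dll1 fell and Jag1 did not pass the test in the main fit. Jag2 was at 47.8 and 42.5 CPM in basal cells, 11.7 and 8.89 CPM in transitional cells and 1.82 and 1.74 CPM in spinous cells, a log2 fold change of -2.17 ± 0.20 against basal (adjusted p = 7.89e-06) and 2.49 ± 0.39 against spinous (adjusted p = 0.0015), a call lost with keratin limits of 1.6% (1.43, adjusted p = 0.43). Dll1 was at 3.63 and 1.27 CPM against 17.5 and 12.2 in basal cells (-2.73 ± 0.40), and Lfng, a glycosyltransferase that alters which ligands a Notch receptor responds to, at 8.87 and 2.79 against 45.1 and 47.5 (-3.15 ± 0.30). Jag1, the other Jagged ligand, was at 23.4 and 22.6 CPM against 18.2 and 14.1 and did not pass against basal in the main fit (adjusted p = 0.07). Among targets, Hes1, a transcriptional repressor gene, was at 73.3 and 57.3 CPM in basal cells, 123 and 113 CPM in transitional cells and 122 and 87.6 CPM in spinous cells (log2 fold change over basal 0.86 ± 0.16, adjusted p = 0.0014). Nrarp, a feedback inhibitor of Notch, was at 28.9 and 32.9 CPM in basal cells, 94.7 and 105 CPM in transitional cells and 129.7 and 132 CPM in spinous cells and rose by 1.70 ± 0.12 (adjusted p = 7.40e-07). Rbpj, the DNA-binding partner of Notch, was at 33.5 and 35.3 CPM in transitional and 35.4 and 36.8 in basal cells, and Hes5 had no UMI in the 3 classes.

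Of 20 differentiation transcription factors tested from a list of 21, 11 rose against basal and none fell. Against spinous cells 3 were lower and 1 higher. The shares over all genes tested were 14.7%, 16.1%, 6.10% and 4.78%. The list's median log2 fold changes were 0.95 (0.57 with no other-lineage limit on the comparison classes) and -0.11, the latter 0.01 with library size scaling, -0.37 without Krt79-positive members, -0.34 with other-lineage limits on the transitional cells and -0.45 with no such limit on the comparison classes. Against spinous cells 5 were lower with the mouse as a block, and 0 among cells of 5000 to 20000 UMIs. Zfp750, a zinc finger activator of terminal differentiation at chr11:121510978-121519333, was at 4.53 and 6.34 CPM in basal cells, 85.1 and 103 CPM in transitional cells and 101 and 127 CPM in spinous cells. It rose by 4.09 ± 0.19 over basal (adjusted p = 5.33e-08) and did not differ from spinous cells past the test (-0.27 ± 0.17, adjusted p = 0.36). In cells thinned to 3000 UMIs a Zfp750 UMI was seen in 21.97% (15.2 to 30.004) and 24.6% (19.3 to 30.5) of transitional cells, 1.09% and 1.80% of basal cells, 21.4% and 27.6% of spinous cells and 0.623% and 1.16% of melanocyte-like cells. The transitional intervals held the spinous shares and lay far above those of the melanocyte-like cells. Cebpa, which encodes C/EBPα, was at 38.8 and 28.1 CPM in basal cells, 165 and 134 CPM in transitional cells and 233 and 182 CPM in spinous cells (2.16 ± 0.22 over basal, adjusted p = 1.75e-05). Klf5 was near the spinous level, with 158 and 137 CPM in basal cells, 333 and 325 CPM in transitional cells and 338 and 293 CPM in spinous cells. By contrast, Grhl1, a grainyhead factor that acts on desmosomal cadherin genes, was at 4.01 and 5.25 CPM in basal cells, 44.3 and 40.7 CPM in transitional cells and 91.2 and 87.9 CPM in spinous cells and stayed below spinous by -1.08 ± 0.15 (adjusted p = 0.000828). Klf4 was also in between, at 304 and 277 CPM in basal cells, 597 and 532 CPM in transitional cells and 1017 and 1027 CPM in spinous cells (0.96 ± 0.14 over basal, -0.86 ± 0.14 against spinous). The calls of Grhl1 and Klf4 against spinous were lost among cells of 5000 to 20000 UMIs (-0.73, adjusted p = 0.093, and -0.38, adjusted p = 0.19). Trp63, the p63 gene that maintains the basal state, was at 182 and 149 CPM in basal cells, 108 and 99.3 CPM in transitional cells and 79 and 70.6 CPM in spinous cells. Tfap2c, Gata3 and Id3 did not pass against either neighbour.

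Of 15 barrier lipid genes, 9 rose against basal and 10 were lower than in spinous cells, with none moving the other way and medians of 1.11 and -0.99. The shares over all genes tested were 14.7% and 6.10%. The list's number lower than in spinous cells was 6 with keratin limits of 1.6% and 4 among cells of 5000 to 20000 UMIs. Fabp5, the epidermal fatty acid binding protein gene, was at 125 and 222 CPM in basal cells, 2447 and 2424 CPM in transitional cells and 6376 and 7002 CPM in spinous cells (log2 fold changes 3.81 ± 0.26 and -1.46 ± 0.24). Elovl4, which makes the ultra-long fatty acids of barrier ceramides, was at 8.88 and 12.7 CPM in basal cells, 117 and 95.8 CPM in transitional cells and 459 and 445 CPM in spinous cells (3.29 ± 0.22 and -2.09 ± 0.20). Acer1, an alkaline ceramidase gene, was at 1.77 and 3.55 CPM in basal cells, 18.5 and 16.5 CPM in transitional cells and 97.7 and 81.8 CPM in spinous cells. All 3 genes were apart from both neighbours in both mice. Of 19 late cornified envelope genes tested from a list of 20, 5 rose against basal, none fell, and 9 were lower than in spinous cells. The shares over all genes tested were 14.7%, 16.1% and 6.10%. The list's medians were 0.45 and -1.92. Among cells of 5000 to 20000 UMIs 2 were lower than in spinous cells, with a median of -0.13, and with keratin limits of 1.6% 3 rose against basal. Tgm3, the transglutaminase 3 gene, was at 1.08 and 1.45 CPM in basal cells, 4.03 and 2.79 CPM in transitional cells and 65.7 and 68 CPM in spinous cells. Its level remained close to that of basal cells, with a rise of 1.33 ± 0.36 (adjusted p = 0.014) whose call was lost without dividing cells (0.98, adjusted p = 0.12), with keratin limits of 1.6% (1.65, adjusted p = 0.081) and among cells of 5000 to 20000 UMIs (0.58, adjusted p = 0.54), and it was below spinous by -4.34 ± 0.24 (adjusted p = 1.72e-06). Casp14, a caspase of cornification, was at 1.51 and 2.36 CPM in basal cells, 18.1 and 13.7 CPM in transitional cells and 83.7 and 81.5 CPM in spinous cells (2.95 ± 0.24 over basal). Cnfn, the cornifelin gene, had 0.806 and 1.52 CPM, against 0.819 and 2.54 in basal and 16.4 and 15.6 in spinous cells. Klk7, a desquamation protease gene counted among the 5 that rose, was at 10.6 and 15.9 CPM in basal cells, 96.3 and 52.6 CPM in transitional cells and 75.6 and 70 CPM in spinous cells, but its transitional level sat in cells with Krt79, as given later, and without them it was below basal (log2 fold change -0.34, adjusted p = 0.56).

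To put genes on one scale, the position of a gene was taken as the part of the way from its basal to its spinous CPM that the transitional CPM had covered, 0 being the basal and 1 the spinous level. This was computed for 312 genes at or over 100 CPM in a class that differed by 2-fold or more between spinous and basal cells in both mice. The 207 genes higher in spinous cells had a median position of 0.479 in mouse 1 (interquartile range 0.364 to 0.602) and 0.480 in mouse 2 (0.343 to 0.626). The 105 genes lower in spinous cells had medians of 0.711 (0.598 to 0.785) and 0.746 (0.656 to 0.830). Which of these groups was further along depended on the scale. On log2(CPM + 0.5) the medians were 0.669 and 0.657 for genes higher in spinous cells and 0.523 and 0.572 for genes lower in them, the reverse order, so that neither the gain of spinous nor the loss of basal transcripts was shown to lead. The rule's own keratins were at 0.0373 and -0.0641 (Krt14 plus Krt5) and at 0.341 and 0.307 (Krt1 plus Krt10) on the CPM scale. Across the 312 genes the positions in the 2 mice had a Spearman's rho of 0.897, a description over genes that share libraries. Among the genes higher in spinous cells 10 were past 0.75 in both mice and 24 were under 0.25, and among those lower in spinous cells 35 were past 0.75 and 2 under 0.25. Ly6d, Zfp750, Klf5 and Krt16 were among the first 10. Dsc1, Elovl1, Flg and Spink5 were among the 24. H19 and Krt17 were the 2 under 0.25. H19 was near the basal level (0.0137 and -0.0474). Krt17 was above it in both mice (-0.568 and -0.124), and its level was higher in members with Krt79, as given later. Among cells of 5000 to 20000 UMIs the medians over both mice were 0.566 and 0.849 on the CPM scale, and on the log2 scale 0.727 and 0.704 for genes higher and 0.697 and 0.737 for genes lower in spinous cells.

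**Figure D3:**
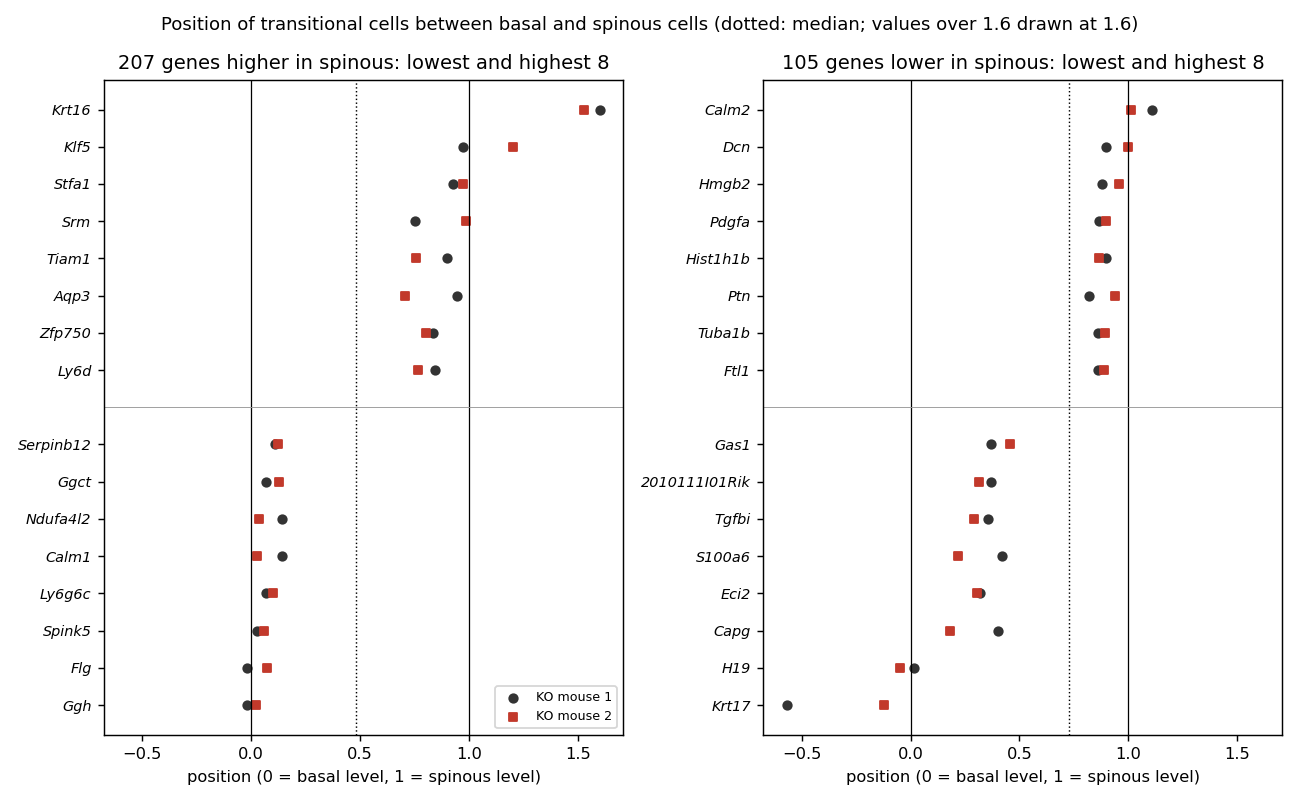
The x axis is the position between the basal level (0) and the spinous level (1) in CPM, and each line of points is a gene, with KO mouse 1 as circles and KO mouse 2 as squares. The 8 lowest and 8 highest genes are drawn of the 207 higher in spinous cells (left, medians 0.479 and 0.480, dotted) and of the 105 lower in spinous cells (right, 0.711 and 0.746), with values over 1.6 drawn at 1.6.

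The members were also divided by Krt1 plus Krt10 as a part of all 4 keratins, at 1/3 and 2/3. This gave a low range of 26 and 65 cells, a middle range of 75 and 131 cells and a high range of 34 and 51 cells. The ratio is made from rule genes, so the levels along it are described without a test. Ly6d was near its full level in the low range already, at 10492 and 10393 CPM, with 12052 and 10279 in the middle and 12620.5 and 10564 in the high range. Zfp750 went from 47.5 and 68 CPM through 98.4 and 106 to 91.2 and 130.2, and Notch3 from 12.8 and 19.6 through 20 and 26.1 to 24.5 and 34.1. Both were thus well above basal in the low range and near the spinous level from the middle range on. Elovl4 was above its basal level in the low range, at 16.5 and 23.7 CPM, but far below its later levels of 108 and 87.2 and then 207 and 189. Tgm3 had no UMI in the low range, 3.34 and 1.97 CPM in the middle and 8.17 and 7.47 in the high range. For Tgm3 the 0 in the low range allows up to 5.48 and 3.09 CPM (3 UMIs in each mouse), so that no step from there to the middle range was detectable. Among basal genes, Col17a1 went down in steps, from 296 and 163 CPM through 188 and 122 to 116 and 81.1. Ccnd2, the cyclin D2 gene, had already dropped in the low range, to 168 and 154 CPM from 667 and 729 in basal cells. H19 was highest in the low range, at 908 and 744 CPM, above the basal level in both mice, and 313 and 413 CPM in the high range.

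**Figure D4:**
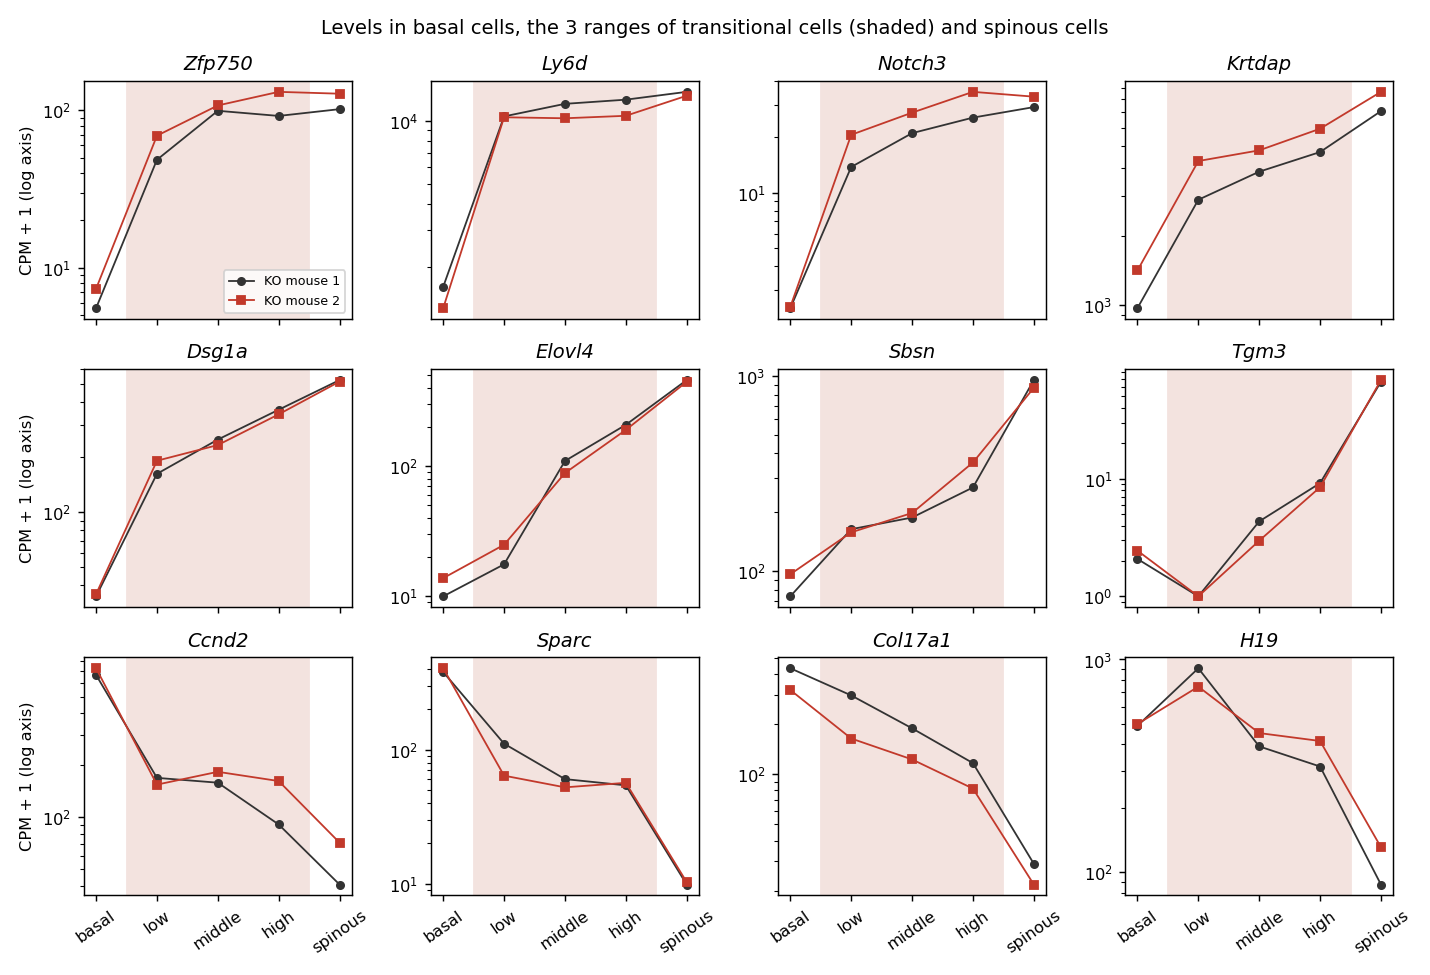
Levels of 12 genes in CPM plus 1 (log y axis) in basal cells, in the low, middle and high ranges of transitional cells (shaded) and in spinous cells (x axis), with 1 line per KO mouse. Ly6d, Zfp750 and Notch3 are raised from the low range on, Elovl4 is higher in the middle and high ranges, and Col17a1 falls across all of them.

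Cell cycle transcripts were lower than in basal cells. All 20 G2/M genes and 19 of 20 S phase genes fell against basal and none rose, with median log2 fold changes of -2.14 and -1.39. Over all genes tested 16.1% fell and 14.7% rose. Against spinous cells 12 G2/M and 9 S phase genes were higher (4.78% of all genes tested), with medians of 1.53 and 0.68. Those counts were 0 and 0 with keratin limits of 1.6% (where 1 G2/M gene was lower) and 1 and 0 among cells of 5000 to 20000 UMIs, 2 and 2 with other-lineage limits on the transitional cells, and 0 and 1 without dividing cells. Over all genes, 514 of 10749 were higher than in spinous cells in the main fit. In these alternatives, in the same order, 103 of 9957, 69 of 9294, 363 of 10587 and 331 of 10538 were, so calls over all genes also became fewer. Without Krt79-positive members 5 S phase genes were higher, and with no limit on the comparison classes 7 G2/M genes. Leaving out dividing cells, which removes cells by their G2/M UMIs, also left 0 G2/M genes below basal. The summed G2/M list was at 868 and 962 CPM in basal cells, 286 and 176 CPM in transitional cells and 82.9 and 81.5 CPM in spinous cells. The summed S phase list was at 756 and 857, 339 and 296, and 189 and 204 CPM. The order basal, transitional, spinous held in both mice for both lists, but with keratin limits of 1.6% the transitional G2/M sum was 71.3 CPM and the list's median against spinous -0.03. Mki67, the Ki-67 gene, was at 86 and 91.5 CPM in basal cells, 36.3 and 19.6 CPM in transitional cells and 9.88 and 7.23 CPM in spinous cells (log2 fold changes -1.73 ± 0.21 and 1.63 ± 0.31), and in mouse 1 most of it came from the low range, with 113 CPM against 6.19 in mouse 2. That range of mouse 1 held 26 cells, 1 of them called as a doublet. Dividing cells were those with at least 3 UMIs over Mki67, Top2a, Cdk1, Ccnb1 and Cenpf. Mki67 is among those genes, so part of its change without these cells follows from how they were chosen. Without dividing cells Mki67 lost both calls (-0.31 and 0.70, adjusted p = 0.56 and 0.43). Its call over spinous was also lost with other-lineage limits on the transitional cells and among cells of 5000 to 20000 UMIs (1.37 and 0.32, adjusted p = 0.10 and 0.84), and its fold change against spinous was -0.26 with keratin limits of 1.6%. In cells thinned to 3000 UMIs, 3.79% (exact 95% interval 1.24 to 8.62) and 3.33% (1.45 to 6.46) of transitional cells had 3 or more G2/M UMIs, against 13.6% and 16.3% of basal cells. In spinous cells the shares were 1.10% and 0 of 174, which allows up to 1.72%. For S phase the shares were 6.06% (2.65 to 11.6) and 6.67% (3.86 to 10.6) of transitional cells, 30.4% and 35.9% of basal cells and 3.85% and 1.72% of spinous cells. The transitional intervals were below the basal shares in both mice, and the transitional shares were above the spinous shares in both mice for both lists, with intervals that overlapped those of spinous cells. Unthinned, 17.0% and 17.4% of transitional cells passed for G2/M and 64.4% and 64.4% for S phase.

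**Figure D5:**
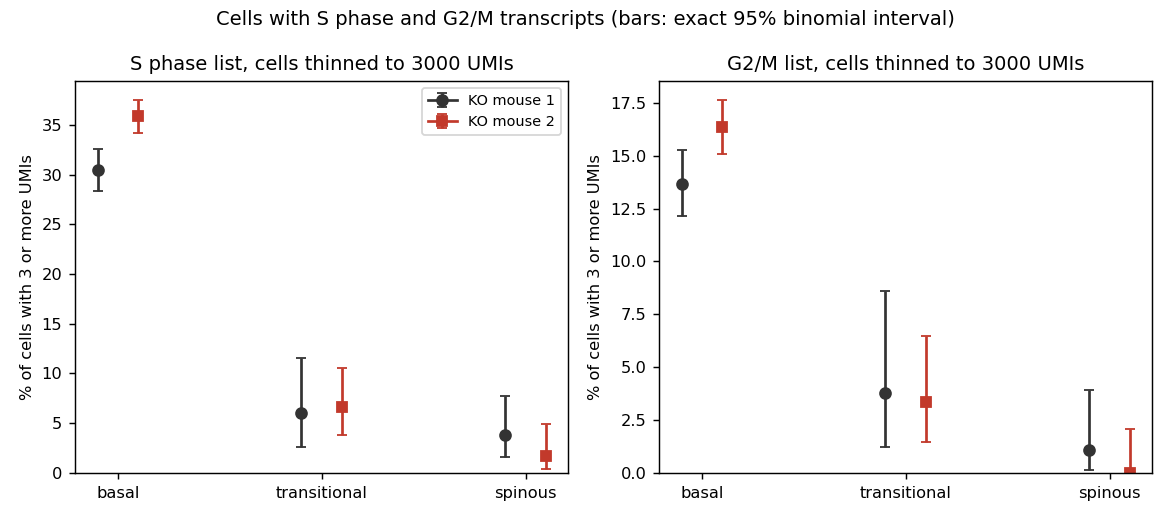
The share of cells with 3 or more UMIs of the S phase list (left) or G2/M list (right) after thinning to 3000 UMIs, in % on the y axis and by class on the x axis, with exact 95% binomial intervals for each KO mouse. Transitional cells, at 6.06 and 6.67% and at 3.79 and 3.33%, lie below basal cells in both mice and above spinous cells, with overlapping intervals.

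Of 14 growth and cell cycle regulators, 3 rose and 6 fell against basal, and 6 were higher and 1 lower than in spinous cells. The shares over all genes tested were 14.7%, 16.1%, 4.78% and 6.10%. With keratin limits of 1.6% 2 of the regulators were higher than in spinous cells, and 3 among cells of 5000 to 20000 UMIs. Ccnd2 was at 667 and 729 CPM in basal cells, 139.9 and 170.2 CPM in transitional cells and 39.8 and 70.3 CPM in spinous cells (log2 fold changes -2.17 ± 0.21 and 1.51 ± 0.22), and its call over spinous was lost with keratin limits of 1.6% (0.78, adjusted p = 0.13). Cdkn1a, which encodes the cell cycle inhibitor p21, was at 62.5 and 60.8 CPM in basal cells, 259 and 295 CPM in transitional cells and 335 and 342 CPM in spinous cells, a rise of 2.17 ± 0.14 over basal (adjusted p = 4.03e-07) that left no difference from spinous past the test (adjusted p = 0.20). Cdkn2b, the p15 gene, was at 0.345 and 0.634 CPM in basal cells, 7.66 and 7.11 CPM in transitional cells and 29.4 and 31.5 CPM in spinous cells, and Cdkn1c, the p57 gene, at 22.3 and 24.3 CPM in basal cells, 5.24 and 7.88 CPM in transitional cells and 1.3 and 1.74 CPM in spinous cells. The inhibitors therefore did not move together: p21 and p15 rose and p57 fell. Myc was at 14.8 and 10.5 CPM in basal cells, 34.3 and 32.8 CPM in transitional cells and 45.2 and 34.1 CPM in spinous cells and was the third gene that rose.

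Among the lists of other cell types, hair follicle markers had the highest summed level in the members. Krt79, a keratin of the follicle canal, had 2 or more UMIs in 30 of 135 (22.2%) and 40 of 247 (16.2%) transitional cells, 70 in all (18.3%), and Sox9, a follicle stem cell factor gene, in 18 (4.71%). After thinning to 3000 UMIs, 19.7% (exact 95% interval 13.3 to 27.5) and 15.4% (11.1 to 20.6) of transitional cells had a Krt79 UMI, against 8.72% (5.87 to 12.4) and 12.2% (9.47 to 15.3) of melanocyte-like cells, so that in mouse 2 the share was not above that of free RNA beyond counting error. The Krt79 UMIs were concentrated, with 3 cells holding 36.7% of them in mouse 1 and 59.3% in mouse 2, and the part of free RNA in the 70 cells was not tested. The hair follicle list, with all 14 genes detected, summed to 1205 and 829.6 CPM, of which Krt79 gave 1096 and 699 CPM, and without Krt79 to 109 and 130.1 CPM, against 225 and 262 CPM with Krt79 in basal cells. The 70 cells and the other members were compared as a description, in genes chosen after their values were seen. Krt17, a keratin of follicle and stressed epidermis, was at 4656 and 2165 CPM in the Krt79-positive and 990.3 and 1245 CPM in the other members. Klk7 was at 396 and 221 and 6.81 and 12.9 CPM, and Krt77, a type II keratin gene, at 284 and 167 and 8.38 and 11.6 CPM. Levels of these 3 genes were thus higher in the Krt79-positive cells in both mice. H19 was at 119 and 249.8 and 589.7 and 576 CPM and Postn at 156 and 114 and 359.8 and 318 CPM, both lower in the Krt79-positive cells in both mice. Sostdc1, a secreted BMP and Wnt inhibitor gene, was at 411 and 249.8 and 81.7 and 123 CPM, and its call over spinous (log2 fold change 1.04 ± 0.18) was lost without the Krt79-positive cells (0.52, adjusted p = 0.17) and in 4 other alternatives. The call of Krt17 over spinous, 2.62 ± 0.20 on the log2 scale, was kept without them (2.10, adjusted p = 5.85e-05) and lost when the comparison cells had no limit on follicle genes (1.34, adjusted p = 0.062). Krtdap was at 4758 and 5469 and 3628 and 4803 CPM, higher in the Krt79-positive cells in both mice, and the difference was not tested. The 2 subsets had median Krt14 plus Krt5 of 1.59% and 1.45% (Krt79-positive) and 1.67% and 2.12% (other).

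The remaining marker lists summed to at most 135 CPM in the members. The 8 melanocyte markers summed to 3.22 and 24.4 CPM with 7 detected, Pmel at 1.61 and 8.13 CPM and Tyr at 0, against 12027 and 13599 CPM in melanocyte-like cells. The Langerhans list summed to 9.27 and 6.35 CPM with 9 of 11 genes detected and Cd207 and Lyz2 at 0, its most abundant gene being Tyrobp at 2.42 and 1.78 CPM. T cell genes, 4 of a list of 7 being in the files, summed to 24.2 CPM in mouse 1, led by Cd3g at 14.1 CPM, and 0 in mouse 2. Their sums were 0.129 and 1.83 CPM in basal cells and 0.260 and 0 CPM in spinous cells. Dermal markers had 3 of 8 detected, led by Vim at 20.2 and 21.9 CPM, with Col1a1, Col3a1, Pdgfra, Lum and Twist2 at 0. Of the Merkel list 5 of 6 were detected, at 0 and 6.86 CPM with Krt20 at 0, and of the sebaceous list 7 of 8, at 135 and 116 CPM, led by Mgst1, a glutathione transferase gene that KCs also express, with Cidec at 0. The sebaceous sums were 39.9 and 44.4 CPM in basal cells and 236 and 219 CPM in spinous cells. Of 4 sebaceous genes tested, 3 were higher than in basal cells, against 14.7% of all genes tested. Inner root sheath and hair genes had 9 detected of 9 in the files, from a list of 10, at 48.4 and 95.02 CPM, led by Tchh. Of all members, 85 (22.3%) broke at least 1 of the limits set on the comparison cells, 1 of them by melanocyte and 1 by immune genes. Scrublet called 1 (0.741%) and 5 (2.02%) members as doublets, against 0.622% and 1.11% of basal cells. A pair of a basal and a spinous cell in 1 droplet would also meet the rule, and its part beyond these calls was not tested. The libraries shared 127 of their barcodes, 34 among kept cells, and 1 member had a barcode that was also in the other library.

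Stress keratins varied from cell to cell. Krt16, a keratin of activated and palmoplantar epidermis, was at 9.36 and 15.6 CPM in basal cells, 541 and 487 CPM in transitional cells and 259 and 324 CPM in spinous cells (log2 fold change over basal 5.34 ± 0.36, adjusted p = 7.30e-07). Its difference from spinous cells did not pass the test (0.82 ± 0.30, adjusted p = 0.11), while with no filter beyond 1 UMI the joint test called it above both neighbours. It was detected in 70 of 135 and 121 of 247 members, and 1 cell held 16.3% and 32.6% of its UMIs in mouse 1 and mouse 2. Krt6a, its type II partner, was at 8.87 and 96.5 CPM, but 1 cell held 79.5% of the 380 UMIs in mouse 2 and 1 cell 72.7% of the 22 in mouse 1. The level of Krt6a therefore belonged to single cells. The reads of Krt6a and Krt6b, near-identical copies, and of Krt16 and Krt17 may also be split between them. Among 18 immediate early, heat shock and stress keratin genes 5 rose and 2 fell against basal, and 2 were higher and 2 lower than in spinous cells, against 14.7%, 16.1%, 4.78% and 6.10% of all genes tested. With the mouse as a block 9 rose and 4 fell against basal and 7 were higher than in spinous cells. Over all 10749 genes 1987 rose and 2135 fell against basal in that fit, and 765 were higher than in spinous cells. Fos was at 913 and 524 CPM in basal cells, 921 and 695 CPM in transitional cells and 765 and 689 CPM in spinous cells, and Atf3 at 226 and 88.6 CPM in basal cells, 135 and 53.4 CPM in transitional cells and 87.3 and 41.9 CPM in spinous cells, both with wide differences between the mice.

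The cholinergic and Gq calcium genes were in part too low to test. Of 29 listed, 15 were tested, 3 rose and 3 fell against basal, and 1 was higher and 1 lower than in spinous cells, counts near the shares over all genes (14.7%, 16.1%, 4.78% and 6.10%). No other muscarinic receptor gene stood out, with Chrm1 at 0.403 and 0.508 CPM and Chrm2, Chrm4 and Chrm5 at 0 in transitional cells. Gnaq, the Gq α subunit gene, was at 68.9 and 66.2 CPM in basal cells, 43.5 and 47.3 CPM in transitional cells and 30.1 and 33.5 CPM in spinous cells, and Prkca, the protein kinase Cα gene, at 9.7 and 7.99 CPM in basal cells, 1.61 and 1.52 CPM in transitional cells and 1.3 and 1.16 CPM in spinous cells (log2 fold change against basal -2.49 ± 0.36, adjusted p = 0.000255). Stim1, the calcium sensor of the endoplasmic reticulum, was at 32.4 and 29.6 CPM in basal cells, 50.8 and 60.5 CPM in transitional cells and 67.3 and 62.5 CPM in spinous cells (0.86 ± 0.12, adjusted p = 0.000225), and Atp2a2, the SERCA2 calcium pump gene, at 49.3 and 54.5 CPM in basal cells, 79 and 84.9 CPM in transitional cells and 77.4 and 86.2 CPM in spinous cells. Stim1 and Atp2a2 were thus nearer to the spinous than to the basal level in transitional cells. Both mice are labelled Chrm3 KO and no WT cells were analysed, so these levels say nothing of the effect of Chrm3.

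Some genes of the spinous layer were still near the basal level. Dapl1, a gene of early epithelial differentiation, was at 3.54 and 6.54 CPM in basal cells, 4.43 and 5.59 CPM in transitional cells and 134 and 67.4 CPM in spinous cells (against spinous -4.30 ± 0.49, adjusted p = 0.000197), and Serpinb3a, a serine and cysteine protease inhibitor gene, at 1.38 and 4.23 CPM in basal cells, 5.24 and 5.84 CPM in transitional cells and 99.3 and 95.1 CPM in spinous cells (-4.11 ± 0.38, adjusted p = 5.57e-05, and -2.66, adjusted p = 0.089, among cells of 5000 to 20000 UMIs). Neither passed against basal. In contrast, Tmprss4, a membrane serine protease gene, was at 3.92 and 4.64 CPM in basal cells, 112 and 102 CPM in transitional cells and 283 and 254 CPM in spinous cells and had the largest rise over basal among genes at or over 50 CPM after Krt79 and Krt16 (log2 fold change 4.62 ± 0.15, adjusted p = 8.30e-09). These genes, the largest changes by the naming rule, show how far apart single spinous genes stood within 1 class.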

How the data were processed

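Single-cell RNA-seq was made from the epidermis of 2 newborn male Chrm3 KO mice (1 library per mouse, 10x Genomics 3' chemistry). Per the labels, the authors deposited UMI counts per gene and barcode, with no normalization, and the submitters' processing notes name Cell Ranger 3.0.2 and mm10. From these counts, barcodes with 900 to 7700 genes and under 10% mt- UMIs were kept, as in the study's own methods, and the 19488 barcodes left are 2 more than the study states. Members were found by their keratin counts, and basal, spinous and granular KCs by the complementary limits. Melanocyte-like cells, with at least 0.5% of UMIs from Pmel, Dct, Mlana and Tyrp1, served as a reference for free RNA. Doublets were scored in each library with Scrublet (scanpy 1.11.5, expected rate 8%) and were kept.

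UMI counts were summed per mouse and class, and edgeR 4.0.16 (R 4.3.3, TMM, filterByExpr, quasi-likelihood F-test, 4 residual degrees of freedom, biological coefficient of variation 0.103) was fitted to the 8 sums, with Benjamini-Hochberg adjustment over 10749 genes and a threshold of 0.05. A gene above or below both neighbours was tested with the larger of its 2 p-values. The sums of 1 mouse share its library, and the p-values measure the spread between 2 mice. The fit was first tested on simulated data with known changes, and DESeq2 1.42.0 (Wald test) was an alternative. Deviations of sums of the same mouse had correlations of 0.213 (basal and transitional), 0.178 (basal and spinous) and 0.0728 (transitional and spinous), and of 0.00485 to 0.049 with granular sums, and the sums are paired because they come from the same animal.

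The members, 22 gene lists and tests were chosen with earlier results of these data known. The text names rule genes and, per list, up to 3 members of largest and 3 of smallest fold change against basal at or over 20 CPM, genes called above or below both neighbours, the 8 highest and lowest positions at or over 100 CPM, and the 10 largest changes at or over 50 CPM. Other list members, Slc1a4, Krt79-positive cells and the genes compared between them, and the alternatives without Krt79-positive members, without limits on the comparison classes or with positions on a log2 scale were chosen after seeing the data. Of 27998 gene identifiers, 27645 (98.7%) matched GENCODE M21. Promoters were read from RefSeq GRCm38.p6. No barcode-level correction for free RNA was made. Some genes that the naming rule picked are not reported here. Figures were drawn with matplotlib 3.10.9.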

Additional observations from a re-analysis of the deposited data

Results flagged for a closer look

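Barcodes that failed the limits on genes or mitochondrial UMIs also held the keratin pattern of the members. There were 67 such barcodes among 3209 removed in mouse 1 (2.09%) and 272 among 3986 removed in mouse 2 (6.82%), above the 3 barcodes that a count of 0 allows, in data that no comparison above uses. Of these, 43 and 210 had 10% or more mitochondrial UMIs and 34 and 161 had fewer than 900 genes. Their median depth was 1947 and 1842 UMIs and their median mitochondrial share 14.9% and 21.9%. Counting them as members would have raised the number of cells more in mouse 2 than in mouse 1.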

How the results depend on the processing

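The main limits are the 2 mice of 1 genotype, classes cut from counts of the cells they compare, and 135 and 247 members, so that a gene with few UMIs cannot be placed.

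Of 74 named fold changes under 13 alternatives each, 929 values kept their direction and their side of the threshold, 28 lost a call, 1 gained one (Ly6d against spinous, with the replicate block) and 4 reversed. Ly6d against spinous was 0.039 and Mki67 against spinous -0.26 with keratin limits of 1.6%, and Klk7 against basal was -0.26 with other-lineage limits on the transitional cells and -0.34 without Krt79-positive members. The calls lost were mostly under keratin limits of 1.6% (8) and among cells of 5000 to 20000 UMIs (8). Fewer cells entered in both, and the 8 fold changes that lost calls in the latter were also smaller. Whether cell number was the cause was not tested. With 1 mouse left out no named fold change had another sign, which is given with no test since no residual degrees of freedom remained.

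Genes higher than in spinous cells were 331 without dividing cells, 103 with keratin limits of 1.6% and 69 among cells of 5000 to 20000 UMIs, against 514, and genes lower than in spinous cells were 218 and 95 under the last 2, against 656. With the mouse as a replicate block (paired sums) 1010 were lower than in spinous cells, 3 above both neighbours, and all 3317 calls against basal and 1170 against spinous were made again. The count above both neighbours was 13 with no filter beyond 1 UMI, and 0 with other-lineage limits on the transitional cells, 0 without Krt79-positive members and 0 with no such limit on the comparison classes. DESeq2 called 1 gene below both, Hmgn3. The other alternatives left each count within 1.5 times its value above. Of list medians not given with their alternatives above, those against spinous moved among cells of 5000 to 20000 UMIs from 1.20 to 0.75 (other basal genes), 0.68 to 0.37 (S phase), 1.53 to 0.30 (G2/M), -0.33 to -0.17 (desmosome) and 0.17 to 0.03 (Notch pathway), and the late cornified envelope median against basal, 0.45, ran from 0.16 without dividing cells to 0.74 without the granular sums. With keratin limits of 1.6% the medians against spinous were 0.18 for S phase and 0.32 for the Notch pathway. Library size scaling gave 0.29 for the Notch pathway. The G2/M median against basal, -2.14, was -3.74 with keratin limits of 1.6% and -0.57 without dividing cells.

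The share of transitional cells, 1.93%, was 0.993% with a mitochondrial limit of 5%, 0.542% and 3.58% with keratin limits of 1.6% and 0.4%, 1.48% with other-lineage limits and 1.77 to 2.08% with 1 mouse left out. The S phase list, at 318 CPM, was at 229 CPM with keratin limits of 1.6% and 240.1 CPM among cells of 5000 to 20000 UMIs, and the G2/M list, at 231 CPM, was at 71.3 and 99.1 CPM. With 1 mouse left out they were 296 to 339 and 176 to 286 CPM. The median position of genes higher in spinous cells, 0.479, was 0.482 without doublets, 0.495 without dividing cells, 0.566 among cells of 5000 to 20000 UMIs and 0.459 without Krt79-positive members, and that of genes lower in spinous cells, 0.728, was 0.849 among cells of 5000 to 20000 UMIs. On log2(CPM + 0.5), a scale chosen after seeing the data, these medians were 0.663 and 0.547, the reverse order, because a position in CPM is lower for a rise and higher for a fall than the same position in log2. With 1 mouse left out the medians were 0.479 to 0.480 and 0.711 to 0.746. Except where shown, the cause was not tested.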
